A study of Mus musculus with 4 samples.

Results

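The genes described here are 43 interferon-stimulated genes (ISGs), chosen by symbol from the textbook interferon response, and all 43 were among the 16360 gene symbols counted. They were measured by poly(A) RNA-seq in recruited alveolar macrophages, cells that arise from blood monocytes and fill the airspaces after lung injury. The cells were sorted as CD64 Hi, SigF Lo and CD11b Hi from male mice of strain CD57/Bl6 (as the labels spell it), 8 to 10 weeks old, 7 days after 100 µl of bleomycin at 1 U/ml had been given into the trachea. The 2 groups were mice carrying R213G, a variant of the secreted antioxidant enzyme EC-SOD (encoded by Sod3), on both alleles, and wild-type (WT) mice, with 2 libraries each. Every library came from a bleomycin-treated lung, so the levels below are those of injured lungs in both genotypes. The labels do not say whether a library was made from 1 mouse or from several, and the p-values thus reflect the spread among these 4 libraries alone, which may be technical.

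Interferons are cytokines released when cells sense viral or misplaced nucleic acids, and they act on surface receptors that activate JAK kinases and STAT transcription factors. Type I interferons assemble ISGF3, a complex that includes Stat2 and Irf9 and binds the interferon-stimulated response element (ISRE), while interferon gamma acts through gamma-activated sites (GAS). The induced genes encode nucleic acid sensors, enzymes that degrade or edit RNA, proteins that block viral entry and assembly, the ubiquitin-like modifier ISG15 and its ligases, and GTPases that attack the membranes around intracellular microbes. Macrophages keep a low tonic level of this response and raise it strongly on infection or injury.

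Total counts ranged from 33488569 to 35176210 per library. The R213G library of replicate 1 had the fewest genes with at least 1 count, 13584, against 14598 to 15194 in the other libraries. Counts of Sod3 itself were 4 and 47 in R213G, against 47 and 96 in WT, which does not check the labels because R213G changes the protein and not the presence of the transcript. Macrophage markers were abundant: in CPM (counts scaled to library size), the summed level of Cd68, Fcgr1, Adgre1, Mertk, Csf1r and Itgam was 5088 and 5432 CPM in R213G and 5622 and 5187 CPM in WT.

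The ISG programme was expressed in every library and did not pass the test of a difference between genotypes for any of its members. Together the 43 genes took 0.321% and 0.332% of all counts in R213G, against 0.320% and 0.340% in WT. Their summed level, in CPM after TMM scaling, was 3146 and 3358 in R213G, against 3255 and 3376 in WT, and the genotypes overlapped. All 43 passed the filter on low counts, and 0 of 43 were called (edgeR's quasi-likelihood test, Benjamini-Hochberg adjusted over 13575 genes, threshold 0.05), beside a background of 0% of all genes tested. At an unadjusted p under 0.05 there was 1 member, Oas3, beside 2.22% of all genes tested. It was lower in R213G, as were 1.29% of all genes tested at that threshold, and 0 members were higher, beside 0.936%. The adjusted p was 1 for each of the 43.

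Log2 fold changes, R213G minus WT throughout, were small and went both ways. They were positive for 23 of the 43 members, beside 49.1% of all genes tested. Their median was 0.02, with quartiles of -0.10 and 0.11, and the median over all genes tested was -0.01. The size of the difference was under 0.25 for 33 members (76.7%), beside 61.6% of all genes tested and 77.4% of the 9690 genes with a mean of at least 5 CPM. It was over 0.5 for 3 members (6.98%), Oas3, Mx2 and Iigp1, beside 20.2% of all genes tested and 5.03% of these 9690 genes. A missed threshold does not show equality, so the interval of each difference was computed: for 41 of 43 members the 95% interval lay inside 2-fold in either direction, beside 59.9% of all genes tested and 84% of these 9690 genes. The exceptions were Mx2 and Iigp1, the 2 members of lowest level.

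**Figure D1:**
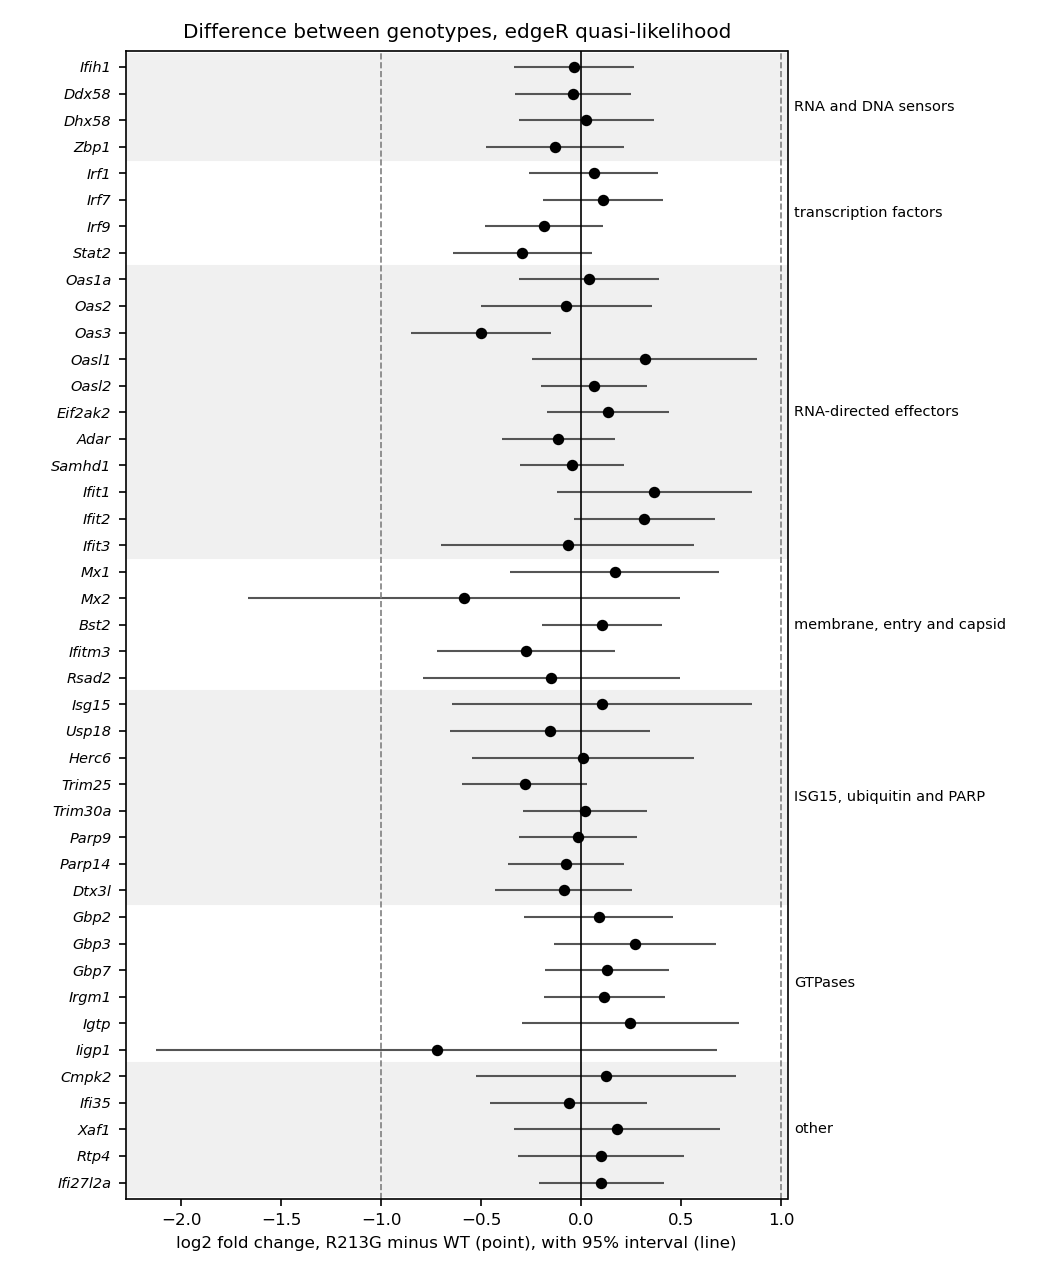
Points are log2 fold changes (R213G minus WT) of the 43 ISGs grouped by role, lines are 95% intervals from the edgeR quasi-likelihood fit of 2 libraries per genotype, and dashed lines mark 2-fold in either direction. Oas3 is the member whose interval does not reach 0 (-0.85 to -0.15), and the intervals of Mx2 and Iigp1 extend beyond the 2-fold lines.

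The order of the members was read per length, as RPKM (the CPM divided by the kilobases of summed exons), and is given here for its 5 highest means. Bst2 (chromosome 8, 71534255 to 71537456, minus strand, GRCm38), which encodes tetherin, the protein that holds budding virus at the cell surface, was highest at 198 and 245 RPKM in R213G and 202 and 210 RPKM in WT. Ifi27l2a, a small hydrophobic interferon-induced protein, followed at 199 and 181 RPKM in R213G and 166 and 189 RPKM in WT. The libraries of these 2 genes overlapped, so their order is not separated. Ifitm3, which blocks fusion of viruses in endosomes, came next at 93.0 and 71.8 RPKM in R213G and 116 and 83.4 RPKM in WT, below every library of Bst2 and Ifi27l2a. Samhd1, the enzyme that depletes deoxynucleotides and so starves retroviral replication, stood at 48.5 and 47.2 RPKM in R213G and 46.2 and 52.6 RPKM in WT. Trim25, a ubiquitin ligase that acts on the RIG-I pathway, stood at 26.6 and 33.7 RPKM in R213G and 35.8 and 37.6 RPKM in WT. The fifth place was not separated, since Trim30a and Irf7 were above Trim25 in R213G replicate 1, at 28.6 and 27.0 RPKM. By the longest transcript in place of summed exons, Samhd1 stood above Ifitm3 and Oasl2 took the fifth place.

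Below these, the levels ran close together, and 37 of 42 neighbours in the order had overlapping libraries. The median member was at 15.5 RPKM, the median of 13264 genes tested with a known length was 4.69 RPKM, and 40 of 43 members were above it. The 3 below it were Herc6, Mx2 and Iigp1. Herc6, the mouse ligase that attaches ISG15 to proteins, was at 2.25 and 1.85 RPKM in R213G and 1.84 and 2.23 RPKM in WT. Mx2, a relative of Mx1 annotated in GENCODE as a polymorphic pseudogene, was at 0.746 and 1.42 RPKM in R213G and 1.39 and 1.85 RPKM in WT. Iigp1, a GTPase that coats the vacuoles of parasites, was lowest at 0.242 and 0.464 RPKM in R213G and 0.754 and 0.420 RPKM in WT. Isg15, a strongly inducible ISG of infected cells, was at 16.3 and 24.4 RPKM in R213G and 23.9 and 14.2 RPKM in WT, below every library of Bst2. No member had a library at 0.

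**Figure D2:**
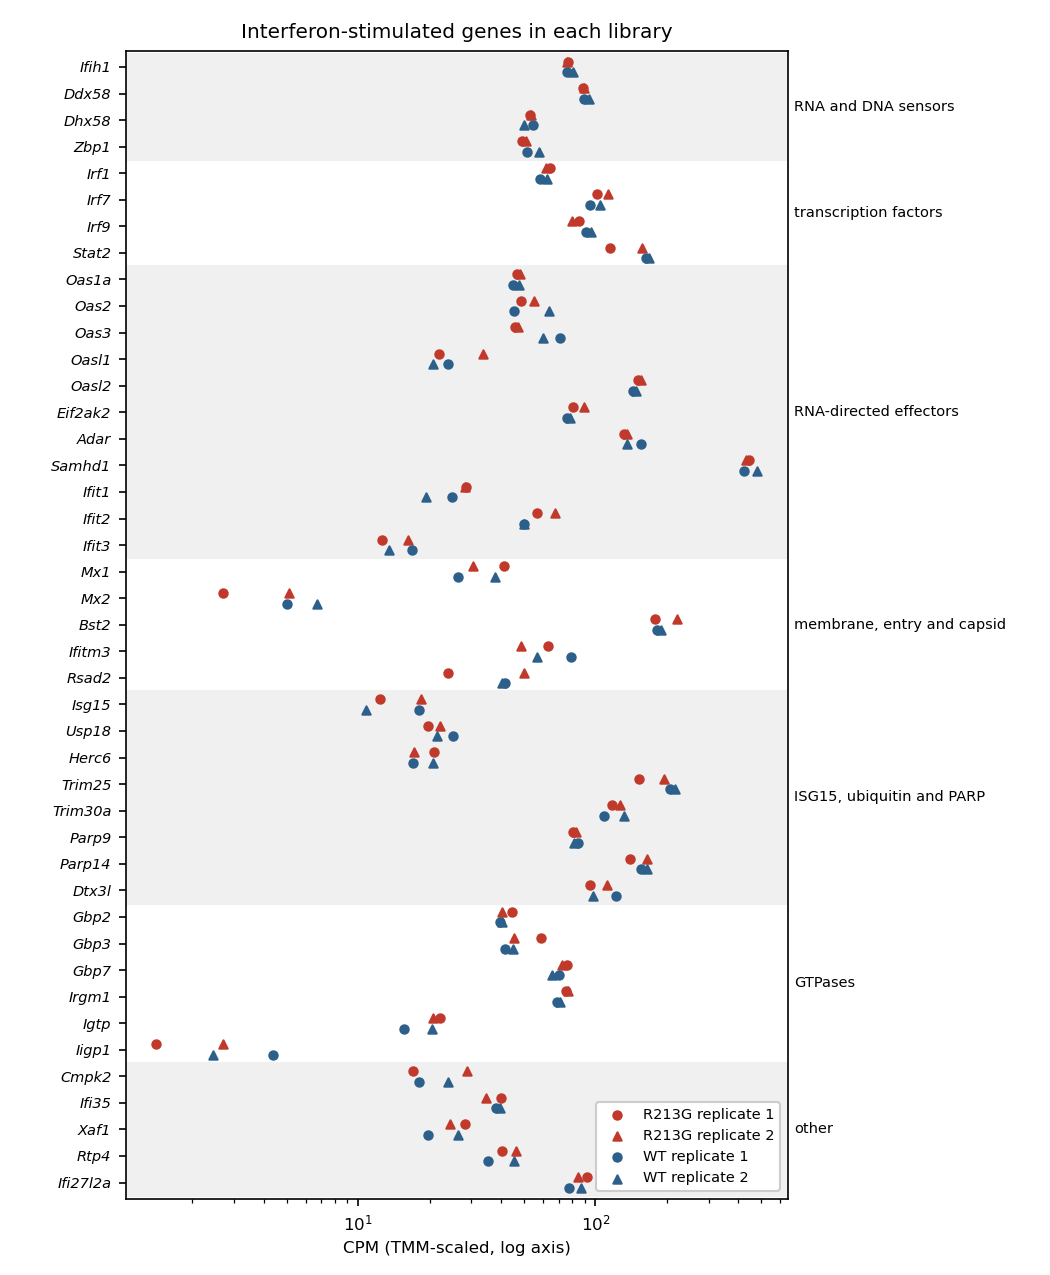
Each row is an ISG and each point a library, placed by its CPM (TMM-scaled, log axis), with R213G libraries in red above WT libraries in blue and replicates 1 and 2 as circles and triangles. Most rows show the 4 points close together, while Rsad2, Mx2, Iigp1, Cmpk2 and Oasl1 show a wide gap inside the R213G pair.

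The promoters were searched for the ISRE and GAS, and the choice of members by symbol used no promoter sequence. RefSeq windows (GRCm38.p6) running from 250 bases before to 50 bases after an annotated start were found for 32 of the 43 members, as 39 windows. The ISRE was searched as GAAA, any 2 bases and GAAA, or on the other strand TTTC, any 2 bases and TTTC, with overlapping matches kept, and GAS as TTCNNNGAA, which is its own reverse complement. Letters of an ISRE were present for 18 of 32 members, or 56.3%, and for 3.99% of the 27025 symbols in the whole table. Letters of GAS were present for 11 of 32 members, or 34.4%, and for 9.55% of all symbols, and 6 members held both. A match describes the letters and shows neither binding nor use of the site.

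Isg15 held 3 overlapping ISRE matches, and Oas1a, Ifit1, Ifit3, Bst2, Ifitm3, Trim30a (over 2 windows), Gbp3 and Irgm1 held 2 each. Upstream stretches are printed for 11 members, each with a match upstream of its start. Of these, 10 stand for the classes compared below: Ifit1, Ifit3 and Isg15, and Oas3, the member of smallest p. They also include Rsad2, with the widest gap between libraries, and the GTPases that were higher in both R213G libraries. The other printed member is Irf1, for its GAS match. Ifit2 is not printed, and its 2 windows held 0 ISRE matches. Each stretch holds 60 bases of GRCm38.p6 upstream of the annotated start, 5′ to 3′ on the gene's strand, with ISRE letters in capitals (for Irf1, GAS letters). Igtp also holds a GAS match in its stretch, from 45 to 37 bases upstream, which is left in lower case.
Isg15, chr4:156200856-156200915, minus strand: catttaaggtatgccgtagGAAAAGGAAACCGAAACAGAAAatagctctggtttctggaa
Ifit1, chr19:34640769-34640828, plus strand: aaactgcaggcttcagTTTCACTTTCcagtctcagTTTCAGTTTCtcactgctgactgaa
Ifit3, chr19:34583365-34583424, plus strand: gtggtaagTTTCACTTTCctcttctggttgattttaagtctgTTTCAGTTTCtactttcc
Oas3, chr5:120777700-120777759, minus strand: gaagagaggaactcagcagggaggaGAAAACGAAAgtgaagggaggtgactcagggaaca
Rsad2, chr12:26456538-26456597, minus strand: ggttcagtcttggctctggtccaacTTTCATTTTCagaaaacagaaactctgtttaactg
Gbp2, chr3:142620579-142620638, plus strand: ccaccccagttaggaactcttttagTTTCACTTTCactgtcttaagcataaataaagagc
Gbp3, chr3:142559977-142560036, plus strand: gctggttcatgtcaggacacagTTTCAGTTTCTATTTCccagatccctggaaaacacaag
Gbp7, chr3:142530258-142530317, plus strand: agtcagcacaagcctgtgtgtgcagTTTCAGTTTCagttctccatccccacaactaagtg
Irgm1, chr11:48871421-48871480, minus strand: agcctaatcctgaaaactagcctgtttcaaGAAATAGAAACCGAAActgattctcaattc
Igtp, chr11:58199496-58199555, plus strand: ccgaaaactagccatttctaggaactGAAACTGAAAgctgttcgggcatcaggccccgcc
Irf1, chr11:53769898-53769957, plus strand: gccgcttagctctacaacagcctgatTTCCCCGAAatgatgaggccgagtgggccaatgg

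The position of the ISRE letters varied across roles: they began 59 bases upstream in Gbp2, 20 in Oas1a, 156 in Ifit3 and 222 in Stat2, and lay just downstream of the start in Ddx58 and Ifitm3. The median log2 fold change was 0.06 for the 18 matched members with an ISRE match and 0.04 for the 14 without.

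**Figure D3:**
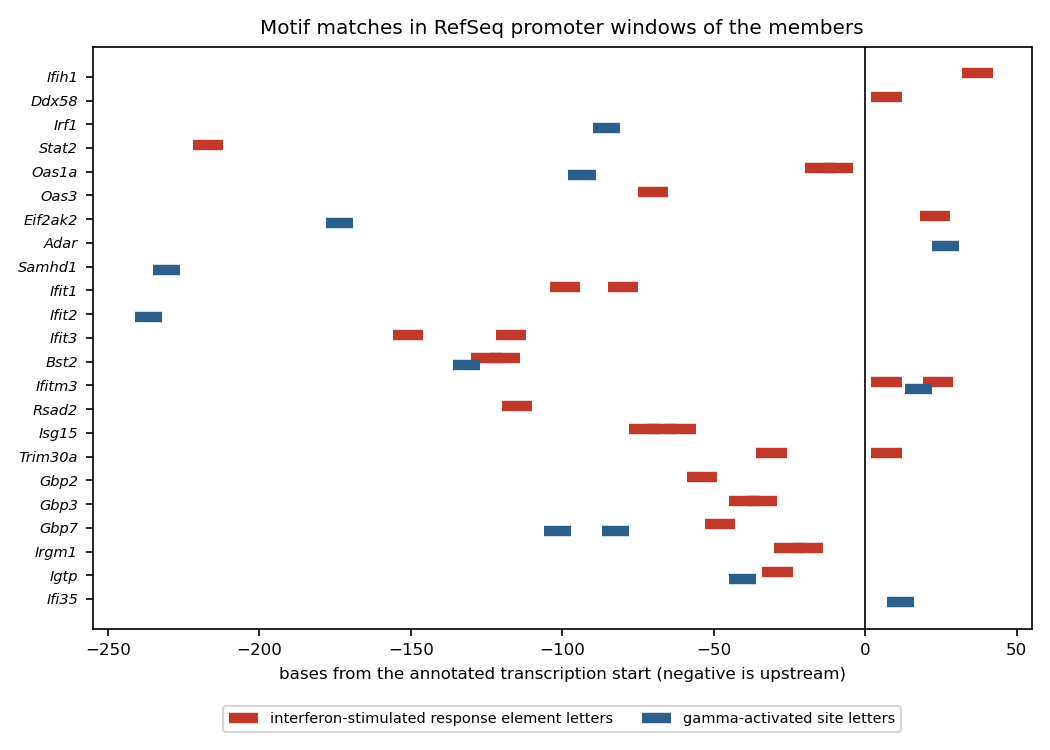
Each row is a member with at least 1 match in its RefSeq promoter window, and bars mark where ISRE letters (red) and GAS letters (blue) lie, in bases from the annotated start. Isg15 carries 3 overlapping ISRE matches between 78 and 57 bases upstream, and ISRE matches of other members are spread from 222 bases upstream (Stat2) to 41 bases downstream (Ifih1).

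Sensors of nucleic acids were nearly level across the libraries. Ifih1, which encodes the long double-stranded RNA sensor MDA5, was at 76.6 and 75.7 CPM in R213G and 75.6 and 80.6 CPM in WT (log2 fold change -0.04 ± 0.13 SE). Ddx58, which encodes RIG-I, the sensor of RNA ends, was at 88.8 and 89.8 CPM in R213G and 89.6 and 94.0 CPM in WT (-0.04 ± 0.13). Dhx58, the LGP2 regulator of both sensors, was at 53.2 and 53.3 CPM in R213G and 54.5 and 50.2 CPM in WT. These 3 genes overlapped between genotypes, and the intervals of their differences ran from -0.34 to 0.36 at their widest. Zbp1, a sensor of Z-form nucleic acid that triggers necroptosis, was lower in both R213G libraries, at 49.0 and 51.2 CPM against 51.6 and 58.0 CPM in WT (-0.13 ± 0.15), and did not pass the test.

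None of the transcription factors passed the test. Irf7, which amplifies type I interferon production, was at 102 and 113 CPM in R213G and 94.6 and 105 CPM in WT, and Irf1, the early factor induced through GAS, was at 64.1 and 62.0 CPM in R213G and 58.3 and 62.4 CPM in WT. Both overlapped between genotypes. The ISGF3 subunit Stat2 was at 115 and 156 CPM in R213G and 164 and 169 CPM in WT (a log2 fold change of -0.29 ± 0.16, unadjusted p = 0.0877). Its DNA-binding partner Irf9 was at 84.8 and 79.5 CPM in R213G and 91.4 and 95.4 CPM in WT (-0.18 ± 0.13, unadjusted p = 0.191). Both R213G libraries were below both WT libraries for each gene, which was also so for 15.2% of all genes tested. The value of Stat2 rested mostly on R213G replicate 1 and was -0.09 without that library, while Irf9 stayed between -0.23 and -0.14 whichever library was left out.

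The 2′-5′ oligoadenylate synthetases, which make the activator of RNase L when they bind double-stranded RNA, held the member of smallest p. Oas3 (chromosome 5, 120753098 to 120777661, minus strand), the long-RNA synthetase, was at 45.8 and 47.0 CPM in R213G and 71.1 and 60.4 CPM in WT. Both R213G libraries lay below both WT libraries, and the 2 R213G values differed by a factor of 1.03. The log2 fold change was -0.50 ± 0.16 (95% interval -0.85 to -0.15, unadjusted p = 0.00997, adjusted p = 1). It ran from -0.62 to -0.38 with each library left out in turn, and its unadjusted p was 0.12 without WT replicate 1.

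The other synthetase and synthetase-like genes among the members had smaller differences than Oas3. Outside the members this did not hold for Oas1g, at 6.50 and 18.3 CPM in R213G and 18.7 and 17.8 CPM in WT (-0.55 ± 0.40), with overlap. Oas1b and Oas1c were at -0.05 ± 0.45 and -0.21 ± 0.41, also with overlap. Oas2, which lies 3244 bases from Oas3 on the same strand, was at 48.3 and 55.1 CPM in R213G and 45.2 and 63.6 CPM in WT (-0.07 ± 0.19), with the genotypes overlapping. Oas1a, the short synthetase with near-identical copies in the mouse cluster, was at 46.8 and 48.3 CPM in R213G and 45.0 and 47.7 CPM in WT (0.04 ± 0.16). Reads of Oas1a and its copies could be divided between them in ways the counts do not show. The difference between Oas3 and these genes was not itself tested. Of the synthetase-like genes, Oasl2, which keeps synthetase activity in the mouse, was at 150 and 156 CPM in R213G and 144 and 148 CPM in WT, without overlap but with a log2 fold change of 0.07 ± 0.12. Oasl1, which represses translation of Irf7 in the mouse, was at 22.0 and 33.5 CPM in R213G and 23.8 and 20.7 CPM in WT (0.32 ± 0.25). Its value rested on R213G replicate 2 and was -0.02 without it.

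The Ifit genes, which encode tetratricopeptide proteins that bind foreign RNA and block its translation, lie in 1 cluster on chromosome 19, and none passed the test. Ifit1, which binds RNA lacking cap methylation, was at 28.4 and 28.3 CPM in R213G and 24.8 and 19.3 CPM in WT (a log2 fold change of 0.37 ± 0.22, unadjusted p = 0.126). Ifit2 was at 56.6 and 67.3 CPM in R213G and 49.8 and 49.9 CPM in WT (0.31 ± 0.16, unadjusted p = 0.0749). Both were higher in each R213G library than in each WT library, as were 13.7% of all genes tested, and neither passed. Ifit1 was 0.19 without WT replicate 2 and 0.56 without WT replicate 1, and Ifit2 was 0.18 without R213G replicate 2. Ifit3, between them on the chromosome, was at 12.6 and 16.2 CPM in R213G and 16.8 and 13.4 CPM in WT (-0.07 ± 0.28), with the libraries interleaved. Ifit3 has a close copy, Ifit3b, with which its reads may be confused. The Ifit genes outside the members went both ways without overlap. Ifit3b was at 3.05 and 3.13 CPM in R213G and 2.85 and 2.27 CPM in WT (0.27 ± 0.55). Ifit1bl1 was at 5.24 and 5.43 CPM in R213G and 9.05 and 6.41 CPM in WT (-0.53 ± 0.40). Ifit1bl2 was also lower in R213G, with 0 and 9 counts against 19 and 17 in WT.

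The remaining enzymes grouped with the RNA-directed effectors differed little, among them Samhd1, which acts on deoxynucleotides. Eif2ak2, which encodes PKR, the kinase that halts translation on double-stranded RNA, was at 80.6 and 89.2 CPM in R213G and 76.1 and 78.5 CPM in WT (0.14 ± 0.14). Adar, which edits adenosine in double-stranded RNA and so hides self RNA from MDA5, was at 132 and 136 CPM in R213G and 155 and 136 CPM in WT (-0.12 ± 0.13). Samhd1, the member of highest CPM, was at 444 and 432 CPM in R213G and 423 and 482 CPM in WT (-0.05 ± 0.12). Eif2ak2 had no overlap between genotypes and the other 2 overlapped. Adar shares 1365 exonic bases with Chrnb2 on the opposite strand, and the strand setting of the counting is not given in the sources used here.

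Among proteins that act at membranes, on entry or on capsids, the libraries of a genotype differed more than the genotypes did. Rsad2, which encodes viperin, an enzyme that makes a chain-terminating nucleotide, was at 24.0 and 49.9 CPM in R213G and 41.6 and 40.5 CPM in WT. The R213G libraries thus lay on either side of the WT pair and differed by a factor of 2.08, the widest gap inside a genotype of any member. The log2 fold change of -0.15 ± 0.29 became 0.28 when R213G replicate 1 was left out and -0.77 when R213G replicate 2 was. Cmpk2, the nucleotide kinase next to Rsad2, 12751 bases away and transcribed in the other direction, was also lower in R213G replicate 1 than in replicate 2, at 17.0 and 28.6 CPM, and was at 18.01 and 23.8 CPM in WT (0.12 ± 0.29).

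Mx1, a dynamin-like GTPase against influenza whose coding sequence is disrupted in many laboratory strains, was at 41.3 and 30.6 CPM in R213G and 26.3 and 37.6 CPM in WT (0.17 ± 0.23). Mx2 was at 2.69 and 5.12 CPM in R213G and 5.02 and 6.70 CPM in WT (-0.58 ± 0.48, interval -1.66 to 0.49). Leaving out R213G replicate 1 gave Mx2 a value of -0.20, and leaving out R213G replicate 2 gave -1.12. Bst2 was at 179 and 221 CPM in R213G and 182 and 190 CPM in WT (0.10 ± 0.13), and Ifitm3 at 63.0 and 48.7 CPM in R213G and 79.0 and 56.5 CPM in WT (-0.28 ± 0.20). All 5 genes of this role overlapped between genotypes. The value of Ifitm3 was -0.02 without WT replicate 1 and -0.10 without R213G replicate 2.

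The modifier ISG15 and the enzymes around it showed no common direction, with 3 of 8 log2 fold changes positive and a median of -0.045. Isg15, the ubiquitin-like protein that is conjugated to targets or secreted, was at 12.3 and 18.5 CPM in R213G and 18.04 and 10.8 CPM in WT (0.10 ± 0.33), so the gap inside each pair exceeded the difference between them. Usp18, which removes ISG15 and damps signalling at the type I receptor, was at 19.6 and 22.2 CPM in R213G and 25.1 and 21.5 CPM in WT (-0.16 ± 0.22). Herc6 was at 20.9 and 17.2 CPM in R213G and 17.1 and 20.7 CPM in WT (0.01 ± 0.25). The genotypes overlapped for all 3 genes.

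Trim25 was the member of this role with separate libraries, at 153 and 194 CPM in R213G and 206 and 216 CPM in WT (-0.28 ± 0.14, unadjusted p = 0.0692). Leaving out R213G replicate 1 gave -0.12, and leaving out R213G replicate 2 gave -0.47. Trim30a, a mouse TRIM protein that restrains Toll-like receptor signalling and has close paralogs beside it, was at 118 and 126 CPM in R213G and 109 and 132 CPM in WT (0.02 ± 0.14). Trim25 thus did not pass, and Trim30a overlapped between genotypes.

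Parp9, Dtx3l and Parp14 are neighbours on chromosome 16, and the Parp9 and Dtx3l proteins form a complex of an ADP-ribosyltransferase and a ubiquitin ligase that enhances interferon-driven transcription. Parp9 was at 80.7 and 83.0 CPM in R213G and 84.2 and 81.4 CPM in WT (-0.02 ± 0.13), among the smallest differences of the set. Dtx3l was at 94.8 and 112 CPM in R213G and 122 and 97.7 CPM in WT (-0.09 ± 0.15). Parp14, an ADP-ribosyltransferase that modifies STAT signalling in macrophages, was at 140 and 165 CPM in R213G and 156 and 165 CPM in WT (-0.07 ± 0.13). All 3 genes overlapped between genotypes. Parp9 and Dtx3l share 458 exonic bases on opposite strands, so their counts may not be fully separate.

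Of the 6 members in the GBP and immunity-related GTPase families, 5 were higher in both R213G libraries than in both WT libraries, beside 13.7% of all genes tested, and none passed the test. The guanylate-binding proteins Gbp2, Gbp3 and Gbp7, which coat and break the vacuoles of intracellular microbes, lie side by side on chromosome 3. Gbp2 was at 44.6 and 40.3 CPM in R213G and 39.7 and 40.2 CPM in WT (log2 fold change 0.09 ± 0.17). Gbp3 was at 58.9 and 45.1 CPM in R213G and 41.5 and 44.9 CPM in WT (0.27 ± 0.18, unadjusted p = 0.168). Gbp7 was at 75.7 and 72.2 CPM in R213G and 69.9 and 65.4 CPM in WT (0.13 ± 0.14). The lower R213G library of Gbp2 and of Gbp3 lay next to the higher WT library, and without R213G replicate 1 the log2 fold changes were 0.01 for Gbp2 and 0.06 for Gbp3.

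The immunity-related GTPases Irgm1 and Igtp, which guard self membranes and regulate autophagy, showed the same order. Irgm1 was at 75.2 and 76.3 CPM in R213G and 68.7 and 71.1 CPM in WT (0.12 ± 0.13), and with each library left out it stayed between 0.09 and 0.14. Igtp was at 22.0 and 20.7 CPM in R213G and 15.6 and 20.4 CPM in WT (0.24 ± 0.24), and was 0.07 without WT replicate 1. Igtp shares 162 exonic bases with Irgm2 on the same strand. Iigp1 ran the other way, at 1.41 and 2.70 CPM in R213G and 4.39 and 2.45 CPM in WT (-0.72 ± 0.63, interval -2.13 to 0.68), with overlap. Its value became -0.25 with WT replicate 1 left out, -0.33 with R213G replicate 1 left out and -1.27 with R213G replicate 2 left out.

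The other GTPases of these families had both signs. Gbp4, Gbp5, Gbp6, Gbp8, Gbp9, Irgm2, Tgtp2 and Gvin1, a grouping made after their values were seen, had 4 positive and 4 negative log2 fold changes with a median of 0.05. Of these 8 genes, 2 were higher and 1 was lower without overlap between genotypes, beside 13.7% and 15.2% of all genes tested. Irgm2 was at 40.4 and 29.9 CPM in R213G and 33.8 and 37.0 CPM in WT (-0.01 ± 0.20). Whether the 6 members differ from these 8 genes was not tested.

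The last 5 members have separate functions and overlapped between genotypes. Ifi35, which binds the adaptor Nmi, was at 40.0 and 34.7 CPM in R213G and 38.2 and 39.8 CPM in WT (-0.06 ± 0.17). Xaf1, an antagonist of the apoptosis inhibitor XIAP, was at 28.2 and 24.3 CPM in R213G and 19.8 and 26.5 CPM in WT (0.18 ± 0.23). Rtp4, a receptor-transporting protein that restrains type I interferon signalling, was at 40.5 and 46.1 CPM in R213G and 35.4 and 45.4 CPM in WT (0.10 ± 0.19). Ifi27l2a was at 92.4 and 84.0 CPM in R213G and 77.1 and 87.3 CPM in WT (0.10 ± 0.14), and Cmpk2 is given above beside Rsad2. The reads of Ifi35 may include some of Gm11626, which shares 290 exonic bases on the opposite strand.

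Differences inside a genotype set the scale on which the genotype differences should be read. The gap between the 2 libraries of a genotype, taken where it was wider, exceeded the genotype difference for 37 of 43 members, beside 85.2% of all genes tested. The 6 members whose genotype difference was wider than either gap were Oas3, Ifit2, Irf9, Gbp7, Irgm1 and Oasl2. The median gap was 0.18 on the log2 scale between the R213G libraries and 0.17 between the WT libraries. R213G and WT libraries were fully separate for 14 members, beside 28.9% of all genes tested. R213G was higher for 9 of them (20.9% of members, beside 13.7%) and lower for 5 (11.6%, beside 15.2%).

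**Figure D4:**
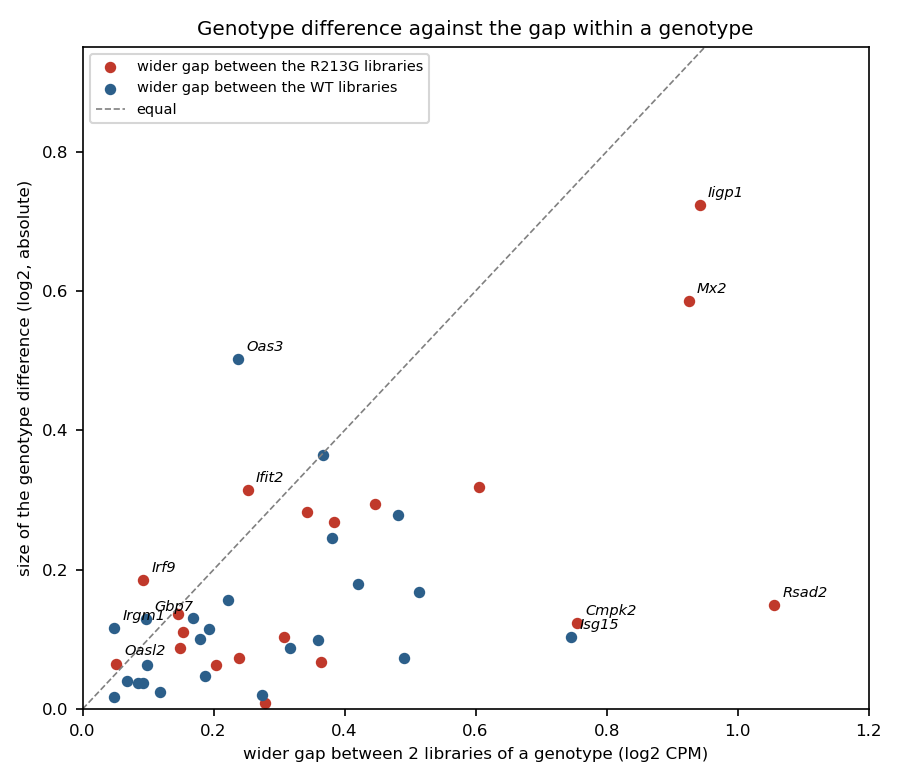
Each point is an ISG, with the wider of the 2 gaps between libraries of a genotype on the x axis and the absolute log2 fold change between genotypes on the y axis, and the dashed line marks equality. The 6 named members above the line are Oas3, Ifit2, Irf9, Gbp7, Irgm1 and Oasl2, and Rsad2 lies farthest right with a gap of 1.06.

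The lowest of the 4 libraries was a replicate 1 library for 35 of 43 members, beside 60.9% of all genes tested. It was R213G replicate 1 for 16 members (37.2%), near the 36.5% of all genes tested. WT replicate 1 was lowest for 19 members (44.2%), beside 24.4% of all genes tested, so the excess lay in that library. The highest was R213G replicate 1 for 25.6% of members and WT replicate 1 for 20.9%, beside 31.2% and 24.8% of all genes tested. The summed level of 6 conventional dendritic cell markers was higher in the replicate 1 libraries, at 139 and 43.6 CPM in R213G replicates 1 and 2 and 151 and 39.8 CPM in WT replicates 1 and 2. That sum was carried by Flt3, Zbtb46, Cd209a and Ccr7. Of the same list, Xcr1 was counted 0 and 17 times in R213G, against 0 and 15 times in WT. Clec9a was counted 0 and 20 times in R213G, against 36 and 8 times in WT. Whether these cells bear on the ISG levels was not tested. In these bulk samples fewer expressing cells and less RNA per cell cannot be told apart. The log2 CPM of the members averaged 5.61 and 5.74 per R213G library, against 5.68 and 5.71 per WT library.

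**Figure D5:**
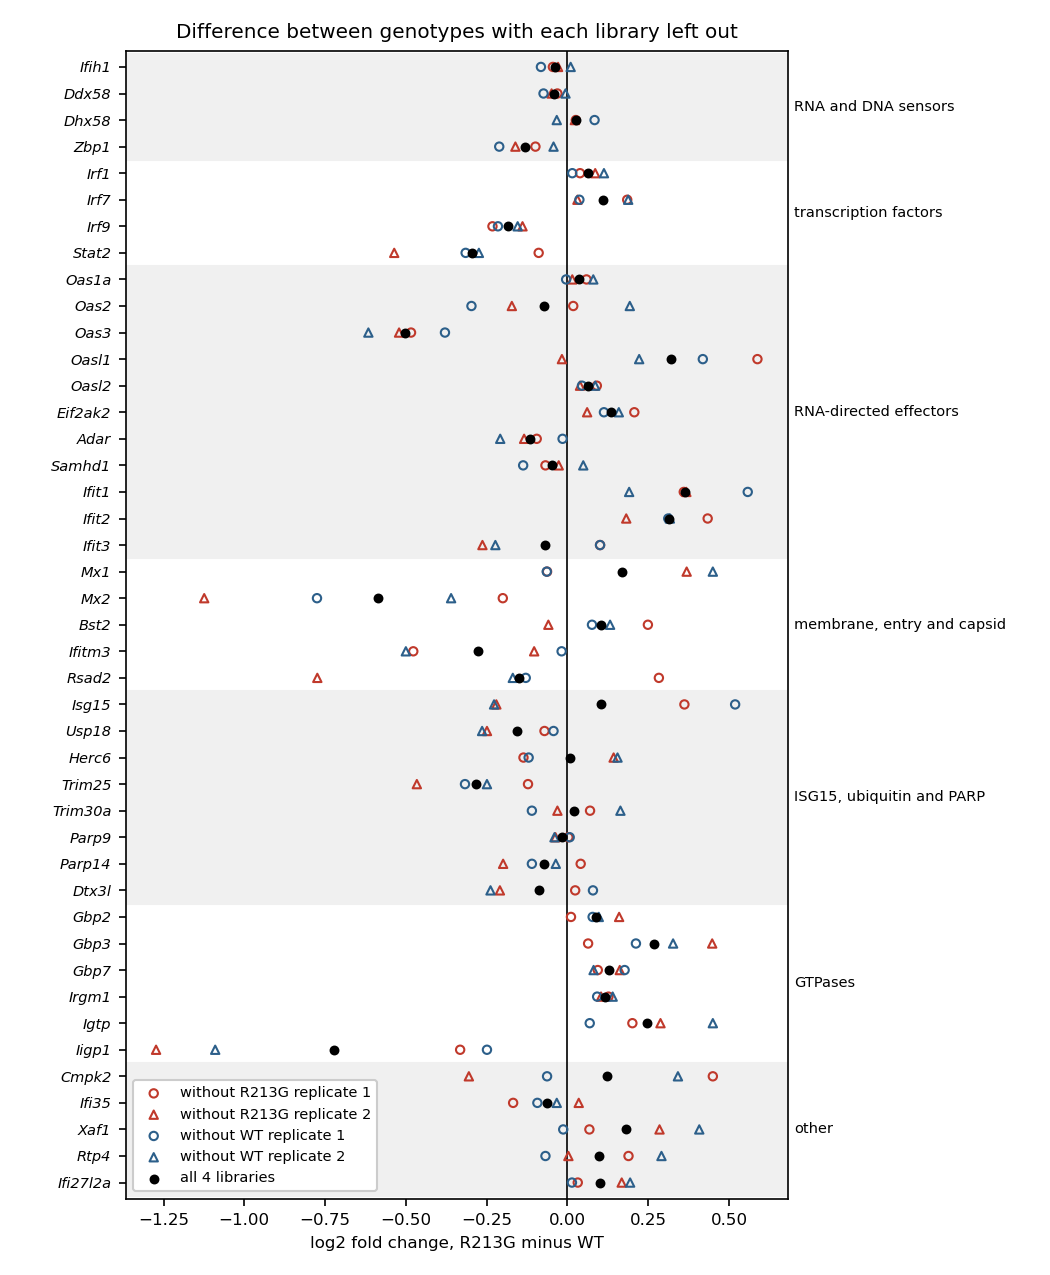
Rows are the 43 ISGs, black points are log2 fold changes (R213G minus WT) with all 4 libraries, and open symbols are the values with 1 library left out. Values of Rsad2, Cmpk2, Isg15 and Oasl1 fall on both sides of 0, while those of Oas3 stay between -0.62 and -0.38 and those of Irgm1 between 0.09 and 0.14.

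Markers of other cell types were measured beside the ISGs, and their part in the ISG levels was not tested. Of 7 plasmacytoid dendritic cell markers, the cells that make the most type I interferon, 5 were in the table, with summed levels of 77.3 and 78.0 CPM in R213G and 80.7 and 78.0 CPM in WT, nearly all of it Tcf4, a factor also used by other cells. The defining marker Siglech was counted 16 and 14 times in R213G, against 0 and 16 times in WT. T cell markers (7 of 8 in the table) summed to 8.39 and 17.5 CPM in R213G and 16.8 and 11.2 CPM in WT, mostly Cd4. Cd3e was counted 75 and 0 times in R213G, against 37 and 0 times in WT. NK cell markers (2 of 7 in the table) summed to 8.75 and 1.73 CPM in R213G and 8.61 and 1.55 CPM in WT, mostly Klrd1. The other, Klrb1c, was counted 0 and 9 times in R213G, against 5 and 0 times in WT. Of 7 neutrophil markers, 5 were in the table and summed to 139 and 157 CPM in R213G and 184 and 181 CPM in WT, mostly Mmp8 and Csf3r, and S100a9 was at 0 in every library but R213G replicate 1. B cell markers (2 of 5) stayed at 2.17 CPM or below. Of the epithelial, endothelial and fibroblast lists, the epithelial list summed to 225 and 101 CPM in R213G and 163 and 99.7 CPM in WT, mostly Cdh1. The endothelial list summed to 102 and 141 CPM in R213G and 136 and 119 CPM in WT, mostly Vwf. Its members Pecam1 and Cdh5 had at most 105 and 37 counts in a library. Of the fibroblast list, Col1a1 had at most 1 count. Markers of monocytes summed to 959 and 787 CPM in R213G and 827 and 960 CPM in WT, and those of resident alveolar macrophages to 301 and 319 CPM in R213G and 228 and 616 CPM in WT. The resident macrophage sum was mostly Chil3, at 198 and 177 CPM in R213G and 134 and 504 CPM in WT after TMM scaling. Siglecf was at 12.1 and 11.6 CPM in R213G and 10.8 and 10.8 CPM in WT. None of these lists had a member called at an adjusted p under 0.05.

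Upstream of the ISGs, none of 13 genes for receptors, kinases and their regulators was called. The type I receptor chains Ifnar1 and Ifnar2 were at 133 and 141 CPM in R213G against 155 and 143 CPM in WT, and at 103 and 108 CPM in R213G against 130 and 104 CPM in WT (log2 fold changes -0.12 ± 0.12 and -0.15 ± 0.14). Log2 fold changes were positive for 3 of the 13 genes and negative for 10, with a median of -0.03. Ifnar1 was lower in both R213G libraries than in both WT libraries, as were 15.2% of all genes tested, and Ifnar2 overlapped between genotypes.

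The genes that induce interferon were likewise not called, in 0 of 14, with 6 positive, 8 negative and a median of -0.05. Libraries did not overlap for 4 of the 14, all with R213G lower, beside 15.2% of all genes tested. The 3 of smallest p were among these 4 genes. Ikbke, a kinase that phosphorylates Irf3 and Irf7, was at 79.6 and 80.8 CPM in R213G and 98.8 and 96.6 CPM in WT (-0.28 ± 0.13, unadjusted p = 0.0529). Its relative Tbk1 was at 56.1 and 72.4 CPM in R213G and 76.0 and 75.6 CPM in WT (-0.24 ± 0.16), a value that was -0.07 without R213G replicate 1. Ticam1, the TRIF adaptor of Tlr3 and Tlr4, was at 36.4 and 30.1 CPM in R213G and 41.0 and 39.1 CPM in WT (-0.27 ± 0.18). Ikbke stayed between -0.30 and -0.27 whichever library was left out. Of 12 ligand genes, 1 was among the gene symbols counted: Il27, a cytokine made by activated macrophages. It was at 1.35 and 0.920 CPM in R213G and 1.85 and 1.81 CPM in WT (-0.69 ± 0.73). The others had no row of counts and are not analysed here.

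A wider list of 79 other ISGs, of which 72 were tested, was measured in the same fit. None was called, 0 had an unadjusted p under 0.05, 36 were positive and 36 negative, and the median log2 fold change was 0. Of the 72, libraries did not overlap for 11 genes with R213G higher and 9 with R213G lower, beside 13.7% and 15.2% of all genes tested. The 3 of smallest p were Cxcl10, the interferon-induced chemokine for T cells, at 12.9 and 19.1 CPM in R213G and 9.78 and 11.0 CPM in WT (0.62 ± 0.31, unadjusted p = 0.0731), Rnf213, a large ubiquitin ligase that coats bacteria, and Isg20, an exonuclease for RNA. Rnf213 was at 330 and 464 CPM in R213G and 480 and 506 CPM in WT (-0.31 ± 0.16) and was -0.09 without R213G replicate 1, a dependence on that library like that of Stat2 and Trim25. Isg20 was at 9.81 and 7.19 CPM in R213G and 7.05 and 3.91 CPM in WT (0.64 ± 0.42), and was 0.27 without WT replicate 2 and 1.12 without WT replicate 1. Cxcl10 was 0.31 without R213G replicate 2.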

How the data were processed

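The deposited table holds unnormalized read counts, with gene symbols as rows and the 4 libraries as columns. The libraries were directional, per the labels' protocols. STAR 2.5.1b, featureCounts and Subread 1.4.4 were used with GRCm38, per the submitters' processing notes. The strand, multi-mapping and annotation settings were not given in the sources used here. Columns were matched to samples by their short names in the labels. The members and lists were chosen with earlier results of these data known.

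The test was edgeR 4.0.16 (R 4.3.3) quasi-likelihood in its bias-adjusted form with robust estimation, R213G against WT, TMM scaling, the filterByExpr filter (13575 genes) and Benjamini-Hochberg adjustment over all of them at 0.05. It had 2 residual degrees of freedom. SE is the log2 fold change divided by the square root of F, and 95% intervals use the moderated degrees of freedom (median 9.53). An exact permutation test of 2 against 2 libraries cannot give a two-sided p below 0.333 and was not used. The script was tested on simulated data. Marker sums use CPM of total counts, other CPM are TMM-scaled. RPKM divides by summed exon length in GENCODE vM21 (GRCm38). Libraries differed beyond sampling noise (chi-square per degree of freedom of 16.6 to 53.3 over the pairs). The lowest value was for R213G replicate 2 against WT replicate 2, and the highest was between the 2 R213G libraries.

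The rule for named genes gave full values to the 5 members of smallest p in each direction, the 5 highest per length and the 5 of widest gap within a genotype, and at most 3 genes in each other interferon list. Values of the remaining members were added so that all 43 are shown. Other genes were named after their values were seen, and 1 gene of the receptor and kinase list is not reported here. Alternatives were other scalings and filters, DESeq2 1.42.0, the legacy quasi-likelihood form, a replicate block, another gene length and leaving out each library.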

Additional observations from a re-analysis of the deposited data

How the results depend on the processing

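No member was called at an adjusted p under 0.05 in any of the 11 alternatives, and 0 genes of the other interferon lists were. The members' signs were kept in all 43 (41 tested at a mean of at least 5 CPM) under the other scalings and filters, DESeq2, the legacy form and the replicate block. The labels tie same-numbered libraries by a number alone, and with 2 pairs this was not taken as pairing. The conventional dendritic cell marker sum also went with the number, as did the NK cell sum, which was mostly the single gene Klrd1. Same-numbered libraries deviated with a correlation of 0.193 over genes and -0.21 over members, and with the replicate block 0 genes and 0 members were called, 23 members were positive and the median member log2 fold change was 0.03. Over the whole table DESeq2 called 1 gene where edgeR called 0. With each library left out in turn, 0 to 7 genes were called (7 without R213G replicate 2, 1 without R213G replicate 1), 0 to 5 members had an unadjusted p under 0.05 (5 without R213G replicate 2, where 14.5% of all genes did, and 0 without WT replicate 1, where 0.589% did), 19 to 27 were positive, and the median ran from -0.029 to 0.08. The cause was not tested. By the longest transcript, 9 of the 10 highest members per length were shared.

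Signs changed for 20 of 43 members, in each case when a library was left out. The log2 fold changes then ran from -0.082 to 0.01 for Ifih1, -0.033 to 0.084 for Dhx58, -0.004 to 0.08 for Oas1a, -0.30 to 0.19 for Oas2, -0.017 to 0.59 for Oasl1, -0.14 to 0.049 for Samhd1, -0.26 to 0.10 for Ifit3, -0.064 to 0.45 for Mx1, -0.059 to 0.25 for Bst2 and -0.77 to 0.28 for Rsad2. They ran from -0.23 to 0.52 for Isg15, -0.14 to 0.16 for Herc6, -0.11 to 0.16 for Trim30a, -0.04 to 0.007 for Parp9, -0.20 to 0.041 for Parp14, -0.24 to 0.079 for Dtx3l, -0.30 to 0.45 for Cmpk2, -0.17 to 0.035 for Ifi35, -0.013 to 0.41 for Xaf1 and -0.068 to 0.29 for Rtp4, and from -0.30 to 0.017 for Ifnar2. The other 23 members kept their sign, though the values of some moved by over 1.5 times. With 3 libraries the lone library of a genotype is assumed to vary like the others. The 2 libraries per genotype limit what can be seen: the median half-width of a member's 95% interval was 0.35 on the log2 scale.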
